A study of Bos taurus with 72 samples.

Results

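Transcripts of 4 cytokine genes were followed in the blood of beef cattle: TNF (ENSBTAG00000025471), IL1B (ENSBTAG00000001321), CXCL8 (ENSBTAG00000019716) and IL10 (ENSBTAG00000006685). The rows were found in the deposited count table by these bovine Ensembl identifiers, a rule that uses no measured value although the genes were proposed with earlier results of these data known, and they are 4 of its 24616 rows. The same 24 male cattle gave blood at 3 stages, called entry, pulled and close-out, so there were 24 libraries at each stage and 72 in all. In feedlot practice a pulled animal is one taken out of its pen for examination, and the series title names bovine respiratory disease. The labels give no diagnosis, treatment, breed, age or number of days between samplings for any of the 3 groups, and no untreated or healthy animals sampled in parallel were analysed here. Stage therefore cannot be told apart from age and time on feed.

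The 4 genes act at different points of the inflammatory response. TNF encodes tumour necrosis factor, and IL1B encodes the precursor of interleukin-1 beta. Both proteins are released mainly by activated monocytes and macrophages, act on many cell types and bring about fever and the acute phase response. CXCL8, also called interleukin-8, is a chemokine that draws neutrophils into infected tissue. IL10 encodes interleukin-10, which restrains the production of TNF, interleukin-1 beta and CXCL8 by myeloid cells. In cattle, neutrophil entry into the lung is a known feature of bacterial pneumonia, and whole blood RNA reports on the circulating leukocytes rather than on the lung.

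Depth was uneven, and some libraries stood apart. Total counts ran from 8.24 to 29.1 M reads per library, with a median of 17.2 M reads, and all 4 genes passed the filter on low counts. The library labelled pulled of animal 9 was nearly the same as the entry library of animal 11. Their counts differed by a chi-square of 1.46 per degree of freedom, where sampling noise alone gives about 1 and the next lowest of 2556 pairs of libraries gave 29.1. The library labelled pulled of animal 12 did not resemble its animal either, with correlations of 0.125 and 0.0952 to its entry and close-out libraries over 100 genes that tell the animals apart. The 68 pairs of libraries of 1 animal without these 2 libraries reached at least 0.790. These genes were picked for their correlation between stages over the animals other than 9 and 12, so high values in those animals were built in. Both doubted libraries were kept under their labels, and the stage results are also given without them. At entry, the 6 animals whose library titles carry numbers above 98 stood apart from the 18 others, and 71.6% of 12878 genes differed between these sets (edgeR, adjusted p under 0.05). The sets were noticed in these data and are not groups of the study, so tests between them describe the division. The blood label was not checked against cell type markers, because the files do not pair identifiers with gene names.

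Levels are given as CPM, read counts scaled to a fixed library size, after TMM scaling, which sets each library's total so that most genes keep their level. Stage comparisons come from edgeR's quasi-likelihood test with the animal as a block, fitted to all 12655 genes that passed the filter, with Benjamini-Hochberg adjustment over them and a threshold of 0.05. The levels of different genes were not compared, since gene lengths on the genome build of the counts were not used here.

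Over the 24 animals, IL1B and IL10 rose and TNF fell at pulled, while CXCL8 changed in opposite directions in the sets of 18 and 6 animals. From pulled to close-out TNF rose and IL10 fell. At pulled against entry, 3 of the 4 genes passed, 2 higher and 1 lower, in a comparison where 42.0% of all genes passed (20.2% higher and 21.9% lower). At close-out against pulled, 2 of the 4 passed, where 27.2% of all genes passed. The adjusted p-values of these 5 calls ran from 0.000544 to 0.0372, and 4 genes are too few to set their share apart from these backgrounds. In whole blood, fewer cells of a type and less RNA per cell cannot be told apart. Without the 2 doubted libraries, 1 of the 4 genes (IL1B) passed at pulled against entry, where 43.0% of all genes passed, and 1 (TNF) at close-out against pulled, where 26.7% passed.

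**Figure D1:**
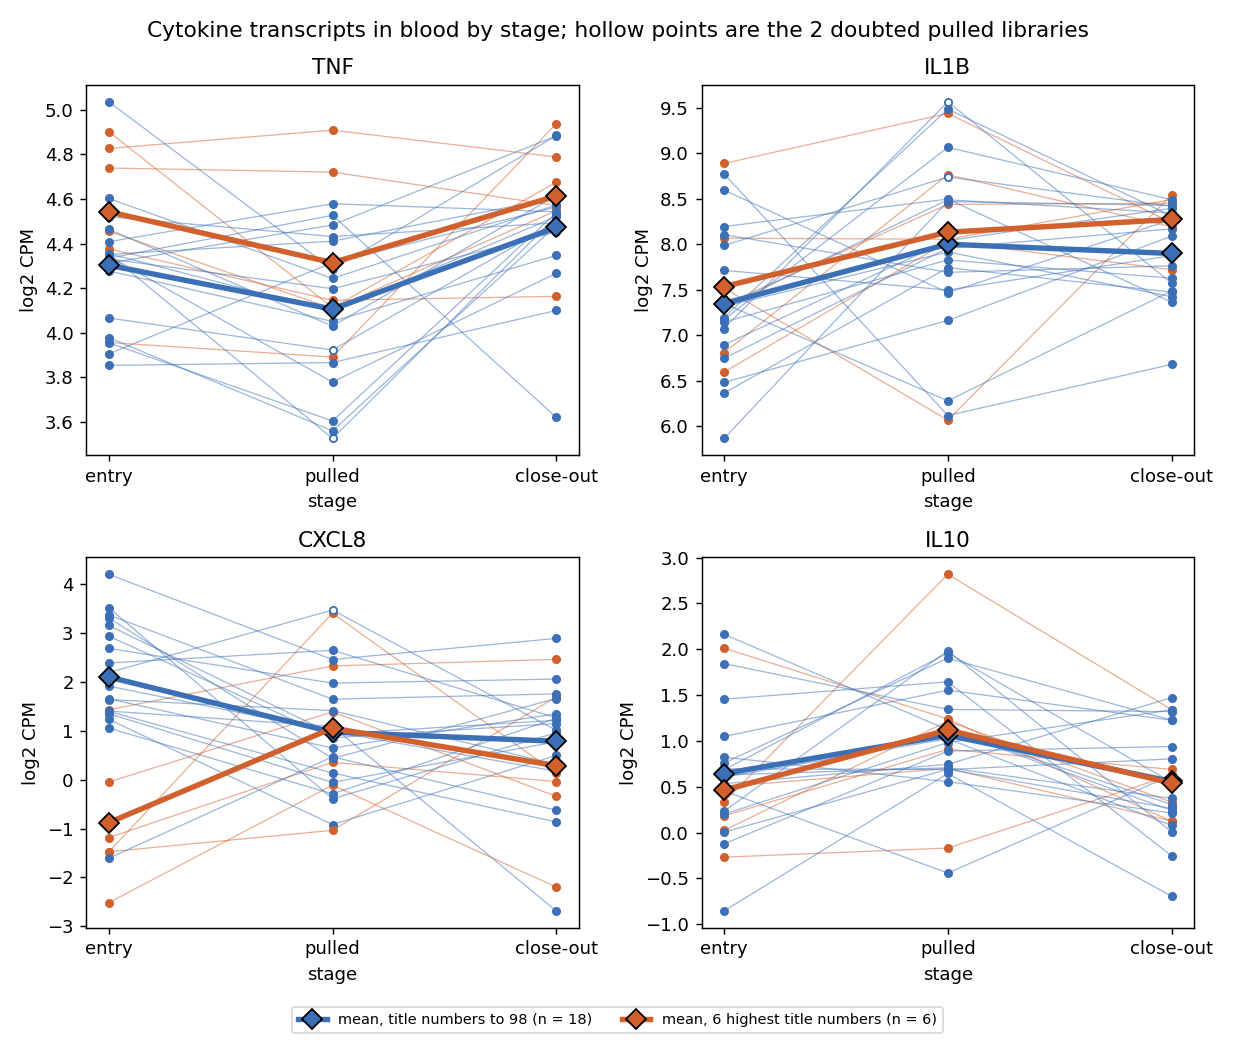
Log2 CPM (y axis) of TNF, IL1B, CXCL8 and IL10 at entry, pulled and close-out (x axis), with 1 thin line per animal and thick lines for the means of the 18 animals with title numbers up to 98 and the 6 with higher numbers. The mean lines of both sets run alike for TNF, IL1B and IL10 from entry to pulled and cross for CXCL8, whose mean went from 2.09 to 0.97 in the 18 and from -0.88 to 1.05 in the 6.

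TNF was the steadiest of the 4 transcripts and was lowest at pulled. Its counts per library ran from 181 to 629 at entry (median 362.5), from 96 to 456 at pulled (median 297.5) and from 156 to 569 at close-out (median 409.5). In CPM the lowest, median and highest animals stood at 14.3, 20.3 and 32.7 on entry, at 11.4, 17.4 and 29.9 when pulled, and at 12.2, 23.2 and 30.5 by close-out. The ranges of the 3 stages overlapped over most of their width, and at no stage did the highest animal exceed the lowest by more than 2.62-fold.

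Mean TNF was 20.9 ± 4.72 CPM at entry, 18.3 ± 4.62 at the pulled stage and 23.0 ± 4.04 at close-out (SD, n = 24). It fell by 0.20 log2 units from entry to pulled (standard error 0.08, adjusted p = 0.0372 in edgeR), and was lower in 17 of 24 animals. From pulled to close-out it rose by 0.35 log2 units (standard error 0.08, adjusted p = 0.000544 in edgeR), a 1.28-fold rise, and was higher in 20 of 24 animals. Close-out and entry, the upper neighbours in the order of levels, did not differ past the threshold (log2 fold change 0.15, standard error 0.08, adjusted p = 0.137 in edgeR). The rise after pulled was thus the firmer of the TNF changes. It passed without the doubted libraries (0.32, edgeR adjusted p = 0.00188) and without each animal in turn. The fall at pulled did not pass without the doubted libraries (-0.17, edgeR adjusted p = 0.0784), nor when animal 7, 13, 15, 18, 19 or 22 was left out (adjusted p from 0.0530 to 0.0711).

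IL1B was by far the most deeply counted of the 4 genes and differed widely between animals. Counts ran from 643 to 10748 at entry (median 2988), from 865 to 11397 at pulled (median 4147.5) and from 1829 to 7113 at close-out (median 4243). The lowest, median and highest animals were at 58.2, 159 and 474 CPM at entry, at 66.99, 262 and 759 at pulled, and at 103, 290.5 and 373 at close-out. Animals thus spread most at pulled and least at close-out, where the highest animal had 3.64 times the level of the lowest, against 8.15 times at entry and 11.3 times at pulled. The highest value at pulled belonged to the doubted library of animal 12. Without both doubted libraries the highest at pulled was 718 CPM, in animal 22, and the spread was 10.7-fold. From entry to close-out the SDs of log2 CPM were 0.77, 0.97 and 0.48, where counting error at the median count amounts to no more than 0.03. Whether the spread differed between stages was not tested.

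Mean IL1B was 194 ± 112 CPM at entry, 318 ± 195 at the pulled stage and 268 ± 78.5 at close-out (SD, n = 24). From entry to pulled IL1B rose by 0.66 log2 units (standard error 0.22, adjusted p = 0.0164 in edgeR), a 1.58-fold rise, and was higher in 17 of 24 animals. The animals were far from uniform. The change ran from -2.66 in animal 11 to 2.60 in animal 13, and its SD over animals was 1.31. IL1B passed without the doubted libraries (0.55, edgeR adjusted p = 0.0419) and without each animal in turn. It did not pass when the libraries were scaled by their totals alone (0.51, edgeR adjusted p = 0.0596) or when only the entry and pulled libraries were fitted (0.68, adjusted p = 0.0529).

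At close-out the level of IL1B did not differ past the threshold from either earlier stage. The log2 fold change from pulled was -0.12 (standard error 0.21, adjusted p = 0.719 in edgeR), and 11 animals were higher and 13 lower. Against entry it was 0.54 (standard error 0.22, adjusted p = 0.0656 in edgeR), with 19 of 24 animals higher. This did not pass in edgeR, and it passed in DESeq2 (0.54, adjusted p = 0.0361), in limma-voom (0.62, adjusted p = 0.0361), with only the 2 stages fitted (0.61, adjusted p = 0.0301), and in edgeR without animal 1, 5 or 11 (adjusted p = 0.0422, 0.0454 and 0.0120).

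IL10 was low throughout and peaked at pulled. Its counts ran from 10 to 107 at entry (median 26), from 10 to 93 at pulled (median 31) and from 9 to 49 at close-out (median 23.5). The lowest, median and highest animals were at 0.438, 1.32 and 4.36 CPM at entry, 0.621, 1.89 and 6.93 at pulled, and 0.503, 1.26 and 2.66 at close-out. Most animals at pulled lay within the range of the other stages, and the highest, animal 2, lay above it. At such counts sampling alone gives an SD of 0.26 to 0.30 on the log2 scale, and the SDs between animals were 0.71, 0.69 and 0.57 from entry to close-out, so counting error is part of the spread in IL10.

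Mean IL10 was 1.60 ± 1.00 CPM at entry, 2.25 ± 1.31 at the pulled stage and 1.46 ± 0.616 at close-out (SD, n = 24). It rose from entry to pulled by 0.50 log2 units (standard error 0.18, adjusted p = 0.0275 in edgeR), a 1.41-fold rise, in 18 of 24 animals. It fell by 0.56 log2 units from pulled to close-out (standard error 0.18, adjusted p = 0.0194 in edgeR), again in 18 of 24 animals. Close-out and entry did not differ past the threshold (-0.06, standard error 0.19, adjusted p = 0.827 in edgeR), and 13 animals were higher and 11 lower. The doubted library of animal 9 carried some of the excess at pulled, at 3.84 CPM against 1.06 at entry and 0.890 at close-out of that animal. Without both doubted libraries neither call stood, at 0.40 for pulled against entry (edgeR adjusted p = 0.0715) and -0.47 for close-out against pulled (adjusted p = 0.0531). The rise at pulled was also lost without animal 2, 8, 9 or 22 (edgeR adjusted p = 0.0653, 0.0584, 0.0685 and 0.0529) and with library totals in place of TMM (0.34, adjusted p = 0.136). The fall after pulled was lost with library totals as well (-0.42, edgeR adjusted p = 0.0923).

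CXCL8 had the widest range of the 4 genes and low counts in many libraries. Over all animals the counts ran from 1 to 475 at entry (median 52.5), from 5 to 199 at pulled (median 26) and from 1 to 151 at close-out (median 28.5). Under 10 reads were counted in 5 entry, 3 pulled and 4 close-out libraries. Mean CXCL8 was 4.47 ± 4.48 CPM at entry, 2.78 ± 2.89 at the pulled stage and 2.07 ± 1.69 at close-out (SD, n = 24), so the SD was about as large as the mean. No stage comparison of CXCL8 passed over the 24 animals. The log2 fold change was -0.49 at pulled against entry (standard error 0.37, adjusted p = 0.273 in edgeR), -0.45 at close-out against pulled (standard error 0.37, adjusted p = 0.392) and -0.94 at close-out against entry (standard error 0.36, adjusted p = 0.0508). With the doubted libraries left out, the first 2 of these were -0.70 and -0.23 (edgeR adjusted p = 0.121 and 0.688).

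At close-out against entry, 0 of the 4 genes passed in edgeR, where 22.2% of all genes passed. At an unadjusted p under 0.05 there were 2, IL1B and CXCL8, and by other tools 2 passed in DESeq2 and 1, IL1B, in limma-voom. The shares of all genes at an unadjusted p, in DESeq2 and in limma-voom are not given here. Counts of the 4 genes under these criteria therefore have no background beside them. CXCL8 passed without the doubted libraries (-0.93, edgeR adjusted p = 0.0497), where 22.6% of all genes passed, and when animal 1, 2, 3, 4, 5, 6, 7, 10 or 12 was left out (adjusted p from 0.0125 to 0.0493).

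**Figure D2:**
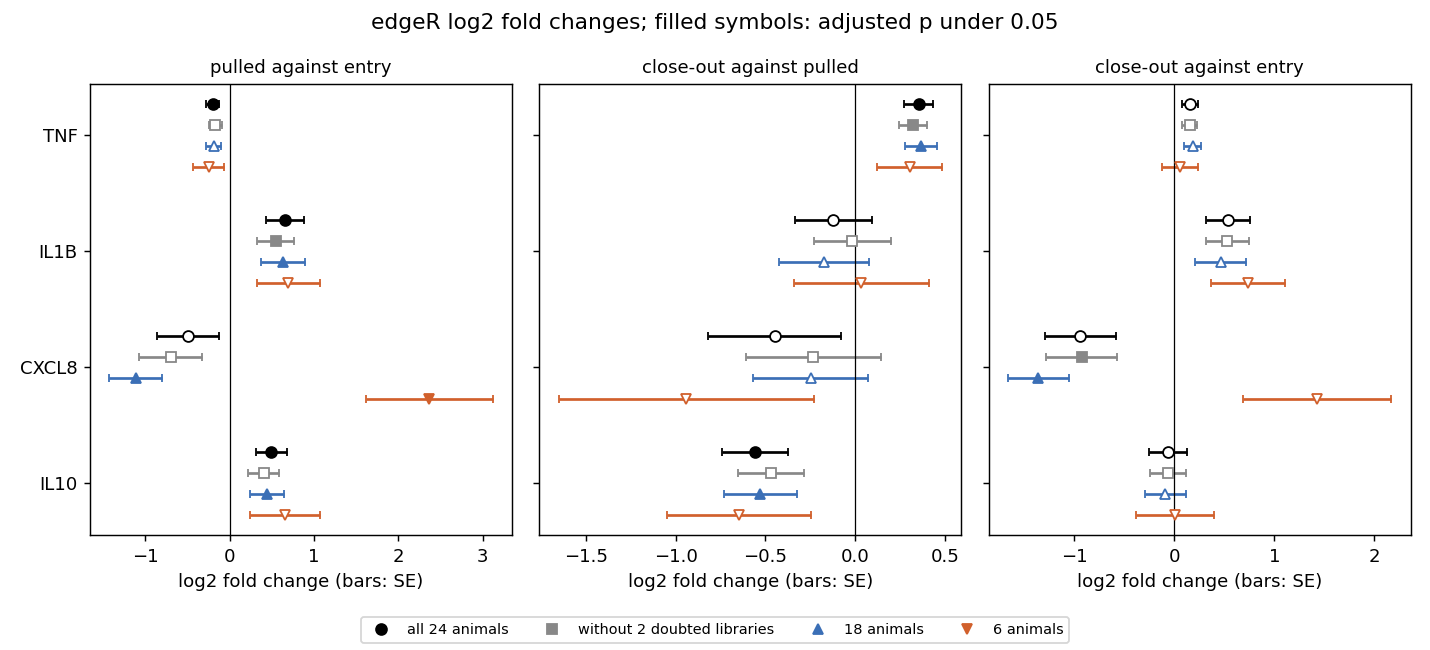
edgeR log2 fold changes (x axis, bars are standard errors) of the 4 genes (y axis) in the 3 stage comparisons, fitted to all 24 animals, without the 2 doubted libraries, to the 18 animals and to the 6 animals. Filled symbols passed an adjusted p of 0.05. For CXCL8 at pulled against entry the 18 animals lie at -1.11 and the 6 at 2.37, on opposite sides of 0, while the estimates of TNF, IL1B and IL10 in that comparison share a side in all 4 fits.

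The average of CXCL8 hid opposite changes in the sets of animals. In the 18 animals with title numbers to 98, CXCL8 counts at entry ran from 5 to 475 with a median of 71.5. They ran from 8 to 199 at pulled (median 26) and from 1 to 151 at close-out (median 29). In the 6 animals with higher numbers, counts ran from 1 to 40 at entry (median 4), from 5 to 159 at pulled (median 23.5) and from 2 to 94 at close-out (median 16). The entry libraries of the 6 thus held little CXCL8, with 62 reads in all, while the entry libraries of the 18 held more than their later ones.

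Mean CXCL8 at entry was 5.72 ± 4.50 CPM in the 18 animals (SD, n = 18) and 0.716 ± 0.948 in the 6 (SD, n = 6). The ranges overlapped only through animal 12 among the 18, at 0.213 CPM, and animal 7 among the 6, at 2.57. At pulled the means were 2.59 ± 2.61 and 3.36 ± 3.83 CPM, and at close-out 2.14 ± 1.63 and 1.85 ± 2.01, and the ranges overlapped widely. The sets thus stood apart for CXCL8 at entry, with a log2 difference of the 6 from the 18 of -2.98 (standard error 0.71, adjusted p = 0.000593 in edgeR), a 7.89-fold lower level. In that test 71.6% of all genes passed, so passing was common there. Without animal 7 the CXCL8 difference was -4.09 (adjusted p = 7.52e-05 in edgeR), and without each other animal it passed too. No such difference passed at pulled (0.39, standard error 0.59, adjusted p = 0.754 in edgeR), where 0% of all genes passed, or at close-out (-0.23, standard error 0.58, adjusted p = 0.951), where 0.0157% passed.

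From entry to pulled, CXCL8 was lower in 15 of the 18 animals and higher in all 6 of the others. Entry counts of the 6 were low, under 10 reads in 4 libraries, with a counting SD of 0.72 log2 units at their median. The smallest of the 6 rises, 0.44 in animal 2, was below that SD, so its direction is uncertain. In the 18, CXCL8 fell by 1.11 log2 units (standard error 0.31, adjusted p = 0.00198 in edgeR), a 2.16-fold fall. In the 6, CXCL8 rose by 2.37 log2 units (standard error 0.75, adjusted p = 0.0226 in edgeR). Of the 3 animals among the 18 in which it was higher at pulled, 2 were animals 9 and 12, whose pulled libraries are doubted, and the third, animal 19, was higher by 0.26. Without the doubted libraries CXCL8 fell by 1.41 log2 units in that set (standard error 0.29, adjusted p = 5.31e-05 in edgeR), a 2.66-fold fall, with 15 of 16 animals lower. The change differed between the sets by 3.49 (standard error 0.76, adjusted p = 0.000106 in edgeR). Leaving out the doubted libraries gave a difference of 3.78 (adjusted p = 1.23e-05 in edgeR), and leaving out animal 3 gave 2.72 (adjusted p = 0.00218).

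From entry to close-out CXCL8 likewise fell in 16 of the 18 animals, by 1.36 log2 units (standard error 0.31, adjusted p = 0.000334 in edgeR), and was the 1 gene of the 4 that passed there, where 64.7% of all genes passed. Without the doubted libraries it was at -1.32 (edgeR adjusted p = 0.000127), again 1 of the 4, where 66.1% of all genes passed. In the 6 it was higher in 5, at a log2 ratio of 1.43 that did not pass (standard error 0.74, adjusted p = 0.136 in edgeR). Among these 5, animal 6 had 1 read at entry and 2 at close-out, too few to give a direction. In the 6, 0 of the 4 genes passed in edgeR, where 40.1% of all genes passed, and 0 had an unadjusted p under 0.05. The difference between the sets was 2.81 (standard error 0.76, adjusted p = 0.00133 in edgeR). From pulled to close-out no difference between the sets passed for CXCL8 (-0.68, standard error 0.73, adjusted p = 1 in edgeR).

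CXCL8 was the 1 gene of the 4 whose change differed between the sets at pulled minus entry, in a test where 68.4% of all genes passed, and again at close-out minus entry, where 64.6% passed. Passing these tests was therefore common among all genes. Both tests use the same entry libraries, so the pass at close-out minus entry is not a separate repeat of the other. The size of the CXCL8 difference was not placed among the sizes for all genes. For TNF, IL1B and IL10 the differences at pulled minus entry were -0.04 (standard error 0.18), 0.08 (standard error 0.51) and 0.24 (standard error 0.44), with edgeR adjusted p-values of 0.853, 0.900 and 0.642. These errors leave room for sizeable differences in IL1B and IL10. At close-out minus pulled 0 of the 4 passed, where 0% of all genes passed, and 0 of the 4 had an unadjusted p under 0.05 in edgeR or passed in limma-voom.

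The TMM scaling factor moved with the sets at entry, at 0.806 ± 0.0966 in the 6 libraries and 1.14 ± 0.0876 in the 18 (SD), and its part in these differences was not tested. With library totals alone, the difference in CXCL8 at pulled minus entry was 4.12 (edgeR adjusted p = 2.01e-05), with 16 of 18 animals lower and 6 of 6 higher. That scaling moved the median difference over all genes from 0.03 to 0.65. TNF then also differed between the sets, by 0.58 (edgeR adjusted p = 0.0199), which is less than the shift of all genes. Median total counts at entry were 17.1 M reads in the 6 and 19.5 M reads in the 18.

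**Figure D3:**
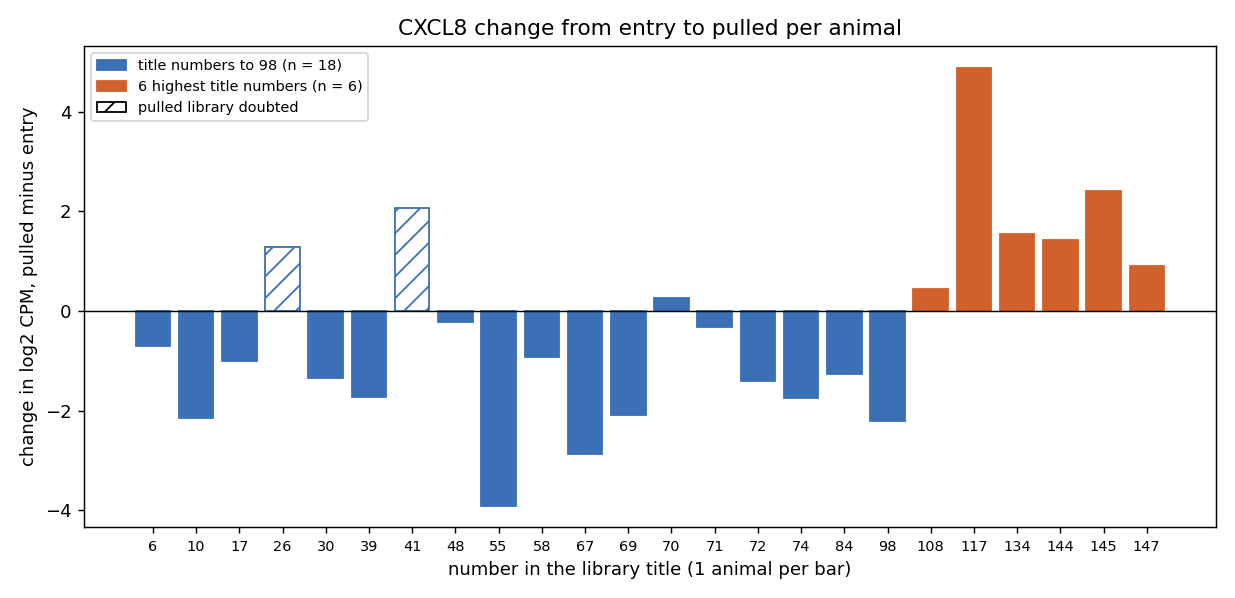
Change of CXCL8 in log2 CPM from entry to pulled (y axis), 1 bar per animal in the order of the number in the library title (x axis), with hatched bars for the 2 animals whose pulled library is doubted. The 6 animals with the highest numbers lie between 0.44 and 4.88, and 15 of the 18 others lie below 0. Entry counts of the 6 were low, with a median of 4 reads, so their smallest changes are uncertain in direction.

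At pulled against entry, TNF, IL1B and IL10 had the same direction within each set as over all animals under TMM, and fewer passed. With library totals the direction of TNF turned in the 6 animals, with 4 higher and 2 lower (1 and 5 under TMM), while 17 of the 18 were lower. In the 18 animals, at pulled against entry, IL1B (0.64, edgeR adjusted p = 0.0300) and IL10 (0.44, adjusted p = 0.0494) passed and TNF did not (-0.19, adjusted p = 0.0549). With CXCL8, 3 of the 4 genes passed there, where 70.9% of all genes passed. Without the doubted libraries 1 of the 4, CXCL8, passed in that set, where 72.5% of all genes passed, and TNF, IL1B and IL10 were at -0.15, 0.49 and 0.30 (edgeR adjusted p = 0.137, 0.0915 and 0.166). In the 6 animals CXCL8 alone passed of the 4, where 41.3% of all genes passed. TNF, IL1B and IL10 stood there at -0.25, 0.70 and 0.65 (edgeR adjusted p = 0.280, 0.149 and 0.215), with the signs of the 18. At close-out against pulled, TNF passed in the 18 animals (0.37, edgeR adjusted p = 0.00178) and so did IL10 (-0.53, adjusted p = 0.0473), where 27.9% of all genes passed. Without the doubted libraries TNF alone passed (0.33, edgeR adjusted p = 0.00517), where 33.1% of all genes passed. In the 6 animals 0 of the 4 passed in edgeR, where 2.52% of all genes passed, and 0 had an unadjusted p under 0.05.

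Within animals, IL1B and IL10 moved together from entry to pulled, and under TMM scaling TNF moved against IL1B. Both rose in 15 of 24 animals and both fell in 4, so IL1B and IL10 shared a direction in 19 animals. TNF and IL1B went in opposite directions in 22 of 24 animals, 16 of them with TNF lower and IL1B higher. No animal had all 4 genes higher or all 4 lower, but with library totals in place of TMM 2 animals had all 4 higher and 4 had all 4 lower. With library totals IL1B and IL10 shared a direction in 20 animals, while TNF and IL1B were opposed in 17. Each gene alone leaned to 1 side. TNF was lower in 19 animals with library totals and in 17 under TMM. IL1B was higher in 18 and 17, and IL10 in 16 and 18. Such leanings by themselves give many shared or opposed directions, and the counts were not tested against them. Without animals 9 and 12, the TMM values gave a shared direction of IL1B and IL10 in 17 of 22 animals and opposite directions of TNF and IL1B in 20 of 22.

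The size of the changes gave the same picture. These relations were computed after the changes had been plotted, over 24 relations of gene pairs, with CXCL8 changes from entry kept within each set. Across the 24 animals the changes of IL1B and IL10 from entry to pulled correlated at a Pearson r of 0.662 (permutation p = 0.00051, adjusted p = 0.0122) and a Spearman rho of 0.710 (permutation p = 0.00018, adjusted p = 0.00432). Without animals 11 and 4, which lay farthest from the median change of IL1B, r was 0.598. It was 0.693 within the 18 animals and 0.659 within the 6. Animals in which IL1B rose more thus tended to be those in which IL10 rose more. Without animals 9 and 12, r was 0.705 (permutation test, adjusted p = 0.00264), and with library totals alone it was 0.683 (adjusted p = 0.0048).

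For TNF and IL1B, r was -0.619 (permutation p = 0.00124, adjusted p = 0.0149) and rho -0.672 (permutation p = 0.00052, adjusted p = 0.00544), and r was -0.688 without animals 9 and 7, the farthest from the median change of TNF. Within the 18 animals r was -0.624 and within the 6 it was -0.607. This relation depended on the scaling, since with library totals alone r was -0.323 (permutation test, adjusted p = 0.332). TNF and IL10 also changed in opposite senses (r = -0.511, permutation p = 0.0104, adjusted p = 0.0416, and rho = -0.537, permutation p = 0.00708, adjusted p = 0.0283). That relation did not pass without animals 9 and 12 (r = -0.444, permutation test, adjusted p = 0.109) or with library totals (r = -0.117, adjusted p = 0.636). Its r was -0.400 without the 2 farthest animals.

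**Figure D4:**
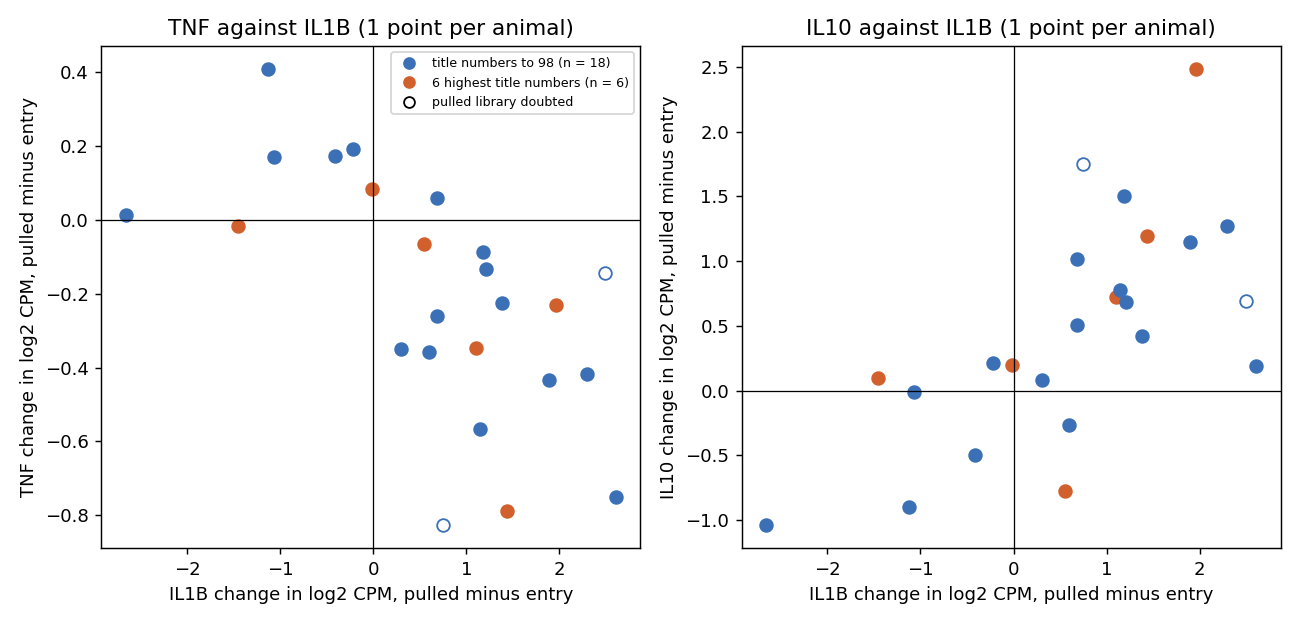
Change in log2 CPM from entry to pulled of TNF (left, y axis) and IL10 (right, y axis) against the change of IL1B (x axis), with 1 point per animal, coloured by set and hollow where the pulled library is doubted. In the left panel 22 of 24 animals lie in the upper left or lower right field, and in the right panel 19 of 24 lie in the upper right or lower left field.

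From pulled to close-out, which uses the same pulled libraries, the changes of IL1B and IL10 again correlated, at r = 0.571 (permutation p = 0.00324, adjusted p = 0.0259) and rho = 0.630 (permutation p = 0.00134, adjusted p = 0.00804). Without the 2 animals farthest in IL1B, animals 4 and 12, r was 0.520, and it was 0.453 in the 18 animals and 0.917 in the 6. Changes of TNF correlated negatively with those of IL1B (r = -0.571, permutation p = 0.00479, adjusted p = 0.0287), IL10 (r = -0.524, permutation p = 0.00756, adjusted p = 0.0363) and CXCL8 (r = -0.498, permutation p = 0.0139, adjusted p = 0.0476), with rho of -0.660, -0.470 and -0.556 (permutation p = 0.00068, 0.02125 and 0.00568, adjusted p = 0.00544, 0.0567 and 0.0273). Without animals 10 and 5 these r were -0.620, -0.411 and -0.420. Without animals 9 and 12 the relations of TNF with IL10 and CXCL8 did not pass (r = -0.450 and -0.440, permutation tests, adjusted p = 0.109 for each). Within the 18 and the 6 animals r was -0.511 and -0.708 for TNF with IL1B, -0.562 and -0.425 with IL10, and -0.696 and -0.155 with CXCL8. None of the 3 relations with TNF passed when library totals replaced TMM. From entry to close-out 0 of the relations passed the adjusted threshold (permutation tests). By Pearson's r, 2 of them had an unadjusted permutation p under 0.05, TNF with IL1B (r = -0.461, p = 0.0244, and -0.555 without animals 5 and 10) and TNF with IL10 (r = -0.449, p = 0.0288, and -0.1799 without those animals).

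Levels, as opposed to changes, gave no relation that passed. Among 44 relations of levels across animals, 24 between genes at 1 stage and 20 of 1 gene between stages, 0 passed after adjustment (permutation tests). At an unadjusted p under 0.05, 4 relations between genes and 1 between stages stood out by Pearson's r. At pulled, IL1B and IL10 levels had r = 0.510 (permutation p = 0.0109, adjusted p = 0.159), TNF and IL1B r = -0.494 (permutation p = 0.0144, adjusted p = 0.159), and TNF and IL10 r = -0.465 (permutation p = 0.0208, adjusted p = 0.183), all over 24 animals. Without the 2 animals farthest from the median of the first gene, these r were 0.472, -0.544 and -0.403, and rho over all 24 was 0.510, -0.521 and -0.556 (permutation tests, adjusted p = 0.125, 0.125 and 0.123). At entry TNF and IL1B had r = -0.664 in the 18 animals (permutation p = 0.00244, adjusted p = 0.107), which was -0.386 without animals 13 and 11, with rho = -0.424 (permutation p = 0.0812, adjusted p = 0.446). At close-out IL1B and IL10 had r = 0.0197 over the 24 animals (permutation p = 0.927, adjusted p = 0.927).

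Between stages, none of the 20 relations of 1 gene's levels passed after adjustment, which at 6 to 24 animals does not show that animals changed places. CXCL8 had r = 0.621 between entry and close-out in the 18 animals (permutation p = 0.0102, adjusted p = 0.159) and rho = 0.639 (permutation p = 0.00561, adjusted p = 0.123), and r was 0.520 without animals 12 and 22. In the 6 animals that r was 0.702 (exact permutation p = 0.115, adjusted p = 0.423). Animal 22 was the highest in CXCL8 at both, at 18.2 and 7.27 CPM. For IL1B the same relation had r = -0.372 (permutation p = 0.128, adjusted p = 0.434) and 0.0174 without animals 11 and 13, and in the 6 animals r was 0.470 (exact permutation p = 0.346, adjusted p = 0.543). For TNF between entry and pulled, r was 0.426 in the 18 (permutation p = 0.0772, adjusted p = 0.371) and 0.660 in the 6 (exact permutation p = 0.176, adjusted p = 0.485). In IL1B, animal 11 was the highest of the 18 at entry with 438 CPM and the lowest at close-out with 103 CPM.

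The entry library of animal 11 and the doubted pulled library of animal 9 had like levels of the 4 genes. TNF stood at 14.3 and 11.4 CPM, IL1B at 438 and 428, CXCL8 at 10.2 and 10.9, and IL10 at 4.36 and 3.84. In 3 of these genes, IL1B, CXCL8 and IL10, the doubted library of animal 9 thus lay above both other libraries labelled with that animal.

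The genes whose log2 CPM ran most like each member over the 72 libraries, among 10394 (TNF and IL1B) or 10395 genes whose mean log2 CPM was 1 or more, are known here by identifier only. For IL1B the closest was ENSBTAG00000002937 (Pearson r = 0.861), and r was 0.845 after the mean of each stage and set was removed. For IL10 it was ENSBTAG00000005958 (0.725, and 0.692 after removal), for CXCL8 ENSBTAG00000017118 (0.687 and 0.562), and for TNF ENSBTAG00000013301 (0.680 and 0.637). IL1B thus had the closest match of any member. These values describe libraries that share animals, depth and scaling, and carry no test.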

How the data were processed

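Whole blood RNA of 24 cattle at 3 stages was sequenced from poly-A libraries, per the labels' protocols. The authors deposited raw read counts per Ensembl gene for each library. The tools were TopHat2 and HTSeq with the genome build UMD3.1, per the submitters' processing notes; their versions, the annotation and the strand setting were not given in the sources used here. Every library column was matched to a sample (0 unmatched). Of 24616 genes, 4766 had no count in any library.

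In R 4.3.3, edgeR 4.0.16 kept 12655 genes (filterByExpr by stage), scaled by TMM and fitted animal plus stage to all 72 libraries. Libraries were paired by the animal id that the labels state. Over 100 genes that tell the animals apart, same-animal libraries correlated at 0.790 or more, apart from the 2 doubted libraries. These genes were picked under the same labels for their correlation between stages, so the high values are no separate check of the pairing. Standard errors were taken as the size of the log2 fold change divided by the root of its F statistic. Sets of animals were compared with a stage-by-set term and within each stage. Log2 CPM used a prior count of 2. Correlations used two-sided permutation tests, with 100000 resamples or, for 6 animals, all 720 orders. The fits were tested on simulated counts in which only a small part of the genes changed. That test does not cover comparisons in which a large share of all genes differs, as in these data.

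The 4 genes and the gene lists were chosen with earlier results of these data known. Of the identifiers, 0 matched the RefSeq gene table of ARS-UCD2.0, so the lists of other cytokines, receptors, regulators and cell type markers were not evaluated, no position is given, and the gene most like each member is given by identifier: the highest Pearson correlation among genes whose mean log2 CPM was 1 or more. Alternatives were no animal block, RLE or totals scaling, DESeq2 1.42.0, limma-voom (limma 3.58.1), other filters, fewer libraries and leaving out each animal. The fits of the 18 animals without the doubted libraries, the left-out animals in the tests between sets and the relations between changes were added after the data had been seen.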

Additional observations from a re-analysis of the deposited data

Results flagged for a closer look

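CXCL8 changed differently in the 18 animals with title numbers up to 98 and the 6 with higher numbers. The difference was 3.49 on the log2 scale for pulled minus entry and 2.81 for close-out minus entry, by a test of the difference itself (edgeR adjusted p = 0.000106 and 0.00133, n = 18 and 6). The sets were noticed in the same libraries, and 68.4% and 64.6% of all genes passed the same tests. Both differences use the same entry libraries and are not separate results.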

How the results depend on the processing

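Values are log2 fold changes, with adjusted p in parentheses. No cause of a change with the setting was tested. The animal block stood for the paired libraries. With no replicate block, TNF was at -0.20 (edgeR, 0.0854) and IL10 at 0.48 (0.0570) for pulled against entry, and CXCL8 passed at -1.11 (0.0437) for close-out against entry. The unblocked fit changed no other call of the 4 genes in the stage comparisons.

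CXCL8 at close-out against entry, -0.94 and just short of the threshold, passed with RLE at -0.93 (edgeR, 0.0498), in DESeq2 at -0.92 (0.0246), with at least 1 CPM in 24 libraries at -0.96 (0.0478), and without the doubted libraries at -0.93. IL1B passed there at 0.62 in limma-voom, 0.54 in DESeq2 and 0.61 with only the 2 stages fitted. At pulled against entry, TNF missed the threshold with no filter at -0.20 (edgeR, 0.0650) and IL1B with only the 2 stages at 0.68. Without the doubted libraries TNF was at -0.17 and IL10 at 0.40, and for close-out against pulled IL10 was at -0.47.

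Scaling by library totals moved the median of all genes from -0.03 to -0.19 at pulled against entry, from -0.01 to 0.13 at close-out against pulled, and from -0.02 to -0.04 at close-out against entry. IL1B (0.51) and IL10 (0.34) then missed the threshold at pulled against entry. At close-out against pulled IL10 missed it at -0.42, and IL1B turned to 0.018. Genes called higher and lower numbered 1565 and 4539 at pulled against entry (2552 and 2768 with TMM), and 2786 and 872 at close-out against pulled (1681 and 1765 with TMM). With only the 2 stages, 1680 were lower at pulled against entry.

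In the 18 animals TNF was at -0.19 and CXCL8 at -1.11 for pulled against entry, with 4291 genes higher and 4693 lower. CXCL8 was at -1.36 for close-out against entry, with 3860 higher and 4339 lower (1295 and 1517 in all animals). In that set without the doubted libraries, TNF was at -0.15, IL1B at 0.49, CXCL8 at -1.41 and IL10 at 0.30 for pulled against entry (4412 higher, 4800 lower), CXCL8 at 0.086 and IL10 at -0.40 for close-out against pulled, and CXCL8 at -1.32 for close-out against entry (3983 higher, 4408 lower). In the 6 animals TNF was at -0.25, IL1B at 0.70, CXCL8 at 2.37 and IL10 at 0.65 for pulled against entry. For close-out against pulled TNF was at 0.30, IL1B at 0.035 and IL10 at -0.65 (142 higher, 172 lower), and for close-out against entry CXCL8 was at 1.43 and IL10 at 0.0080 (2567 higher, 2423 lower).

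For the difference between the sets, limma-voom put IL1B at -0.067 for pulled minus entry. Library totals put TNF at 0.58 for pulled minus entry and 0.53 (edgeR, 0.0352) for close-out minus entry, less than the shift of all genes, from 0.03 to 0.65 and from 0.04 to 0.68. Library totals also put the 6 against the 18 at entry at -0.23 for TNF and -0.33 for IL1B, where the median of all genes moved from -0.05 to -0.54, and IL10 at 0.068 at close-out.

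Leaving out each animal in turn gave, for pulled against entry, -0.24 to -0.17 for TNF (18 of 24 passed) and 0.39 to 0.59 for IL10 (20 of 24). For close-out against entry it gave 0.47 to 0.67 for IL1B (3 of 24), -1.12 to -0.84 for CXCL8 (9 of 24), -0.13 to 0.036 for IL10, and 969 (without animal 20) to 2562 (without animal 2) genes lower. For pulled minus entry, the difference between the sets ran from -0.11 to 0.074 for TNF, -0.16 to 0.35 for IL1B and -0.16 to 0.65 for IL10. CXCL8 passed in all 24 fits of that difference (2.72 to 3.97) and of close-out minus entry (2.22 to 3.17). For close-out minus pulled it ran from -0.23 to 0.031 for TNF, -0.14 to 0.40 for IL1B, -1.46 to 0.060 for CXCL8 and -0.39 to 0.11 for IL10, and for close-out minus entry from -0.10 to 0.59 for IL10. The 6 against the 18 at entry gave 0.16 to 0.36 for TNF, which passed without animal 5 or 13, -0.18 to 0.35 for IL1B, and -4.09 (without animal 7) to -2.72 for CXCL8, which passed in all 24.

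Correlations of changes that no longer passed without animals 9 and 12 were TNF with IL10 at pulled minus entry (r = -0.444), and at close-out minus pulled TNF with CXCL8 (-0.440) and with IL10 (-0.450). With library totals r was -0.323 for TNF with IL1B and -0.117 for TNF with IL10 at pulled minus entry, and -0.375, -0.192 and -0.308 for TNF with IL1B, CXCL8 and IL10 at close-out minus pulled. TNF with CXCL8 at close-out minus entry turned to 0.141 in the 18 animals. Among correlations of levels, library totals turned TNF with CXCL8 (0.107), TNF with IL10 (0.0138) and IL1B with CXCL8 (0.0843) at close-out, and leaving out animals 9 and 12 turned TNF with CXCL8 at entry (-0.111, 18 animals). At the median counts over all animals the counting SD was 0.20 to 0.28 log2 units for CXCL8 and 0.26 to 0.30 for IL10. For CXCL8 in the 6 animals it was 0.72 at entry, where the median count was 4, and 0.36 at close-out.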
